A study of Mus musculus with 14 samples.

Results

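The sites described here are places in the genome of mouse embryonic stem cells where a region bound by the tumour suppressor p53 overlapped chromatin that carried H3K9me3 in vehicle-treated cells of the same line. They were chosen from peak lists. A unique p53 region was kept if it overlapped no region of a ChIP from untagged cells and overlapped, by at least 1 bp, a region of the H3K9me3 list from vehicle-treated cells. Of 11282 p53 regions, 417 overlapped the untagged list and 10865 did not, and 1930 of these 10865 sites (17.8%, 95% Wilson interval 17.1 to 18.5) lay in vehicle H3K9me3. The other 8935 p53 sites serve as the comparison. A p53 call and a vehicle H3K9me3 call therefore define the sites, and the values of those 2 calls are a description of what was chosen.

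Chromatin immunoprecipitation and sequencing (ChIP-seq) was performed in E14 cells, a mouse embryonic stem cell line, grown with leukemia inhibitory factor and the inhibitors PD0325901 and CHIR99021. H3K9me3 and H3K27ac were each profiled after DMSO vehicle and after 1 µM doxorubicin, a drug that traps topoisomerase II and so breaks DNA. Exposure lasted 6 h, a 6 h washout followed, and cells were harvested 12 h after the start. The other groups were an HA ChIP of HA-tagged p53, an HA ChIP of cells without a tag, and input chromatin of doxorubicin-treated cells. No treatment is named in the titles of the HA ChIPs, so p53 binding cannot be assigned to vehicle or doxorubicin here. The titles of the p53 pair repeat 1 replicate number. The labels do not say how the tagged p53 was expressed or whether the tagged line was 1 clone. Each of the 7 groups has 2 libraries, pooled by the authors into 1 list, so no spread between replicates can be given and no comparison below carries a test. Fragments left after duplicate removal numbered 15992125 for vehicle H3K9me3, 14402634 for doxorubicin H3K9me3, 20647895 for vehicle H3K27ac, 17036528 for doxorubicin H3K27ac and 45238471 for p53. Of 30 pluripotency genes, 26 had an H3K27ac region within 1000 bp of a gene end after vehicle, and 26 did after doxorubicin. Among all 45052 genes the numbers were 16573 and 18549, and among 52 p53 target genes 47 and 49. The count is therefore no test of cell identity.

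p53 is a transcription factor that is stabilised after DNA damage and activates genes of cell cycle arrest, repair and cell death, binding a DNA element built from a pair of half-sites. H3K9me3 is the histone mark of constitutive heterochromatin, and in embryonic stem cells it covers many repeats and retroviral elements. H3K27ac marks active promoters and enhancers, so it is usually found apart from H3K9me3.

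Few p53 sites of either set lay at gene starts. Of 1857 sites in H3K9me3 on chromosomes with RefSeq promoter windows in the table used, 16 (0.862%) overlapped such a window. Of 8635 other p53 sites, 124 (1.44%) did. A window is the 250 bases before and 50 bases after a transcription start (GRCm38.p6, the assembly behind mm10). Windows of 4 genes are printed here because the p53 summit lies inside them and they show the range found, from strong binding with a half-site to weak binding without one. Each is written 5′ to 3′ along the gene's strand, and capitals mark matches to the p53 half-site consensus, a 10-base motif that reads the same on both strands. They are Cdkn1a at chr17:29090729-29091028 (plus strand), D730003K21Rik at chr9:116327073-116327372 (plus strand), Gm34607 at chr10:22410956-22411255 (minus strand) and Tmem238l at chr11:66957432-66957731 (plus strand).
Cdkn1a: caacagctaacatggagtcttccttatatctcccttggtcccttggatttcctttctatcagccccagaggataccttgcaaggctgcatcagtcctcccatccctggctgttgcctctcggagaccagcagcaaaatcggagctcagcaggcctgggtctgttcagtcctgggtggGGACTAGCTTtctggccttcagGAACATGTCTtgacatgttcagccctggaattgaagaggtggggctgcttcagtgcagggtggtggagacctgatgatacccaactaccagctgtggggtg
D730003K21Rik: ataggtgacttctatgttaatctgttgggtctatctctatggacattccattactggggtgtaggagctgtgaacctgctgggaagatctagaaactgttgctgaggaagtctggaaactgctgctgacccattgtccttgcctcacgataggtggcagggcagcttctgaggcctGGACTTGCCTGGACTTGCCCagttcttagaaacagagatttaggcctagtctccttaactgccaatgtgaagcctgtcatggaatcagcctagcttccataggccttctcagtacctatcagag
Gm34607: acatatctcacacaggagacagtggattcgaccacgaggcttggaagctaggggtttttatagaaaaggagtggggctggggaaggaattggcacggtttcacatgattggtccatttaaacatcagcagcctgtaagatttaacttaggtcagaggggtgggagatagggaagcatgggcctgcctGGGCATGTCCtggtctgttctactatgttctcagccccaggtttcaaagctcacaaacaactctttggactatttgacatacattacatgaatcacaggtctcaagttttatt
Tmem238l: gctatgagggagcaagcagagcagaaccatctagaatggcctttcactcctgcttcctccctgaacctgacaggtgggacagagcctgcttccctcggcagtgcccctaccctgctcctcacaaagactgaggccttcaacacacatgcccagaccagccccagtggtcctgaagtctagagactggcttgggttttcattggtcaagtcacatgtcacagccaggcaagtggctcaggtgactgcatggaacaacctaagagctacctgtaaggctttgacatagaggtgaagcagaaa

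Counting bases from the 5′ end of each window, the half-sites of Cdkn1a, the gene of the cyclin-dependent kinase inhibitor p21, begin at bases 178 and 200, and the p53 summit is at base 207, 44 bp before the start. In D730003K21Rik, a non-coding gene model, 2 half-sites begin at bases 177 and 187 with the summit at base 179. Gm34607 has 1 half-site at base 188 and a summit at base 167. Tmem238l has no match, and its p53 summit at base 163 had a pileup of 32.3 against 512 at Cdkn1a, 227 at D730003K21Rik and 240 at Gm34607. Pileup is the number of overlapping fragments at the summit, which in the p53 list the authors had scaled to the depth of the input. Of the 7 windows that held a summit of these sites, from 5 genes because 3 windows of Gm10410 overlap each other, 3 (42.9%) had a half-site. The share was 36 of 63 (57.1%) in windows holding a summit of the other p53 sites and 2745 of 32851 (8.36%) in all windows of this length. A match to these letters is a description of the window and no measure of binding.

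The p53 signal of the sites was spread over 2 humps, a weak and a strong one. Their pileup ran from 14.7 to 3826, with a median of 107 and quartiles of 33.0 and 359. The other p53 sites had the same lower quartile, 33.0, but a median of 48.4 and an upper quartile of 85.8. The authors' fold enrichment over background had medians of 15.5 and 7.38, and the p53 regions were 612 and 411 bp wide at the median. The sets thus differed above the lower quartile. Below it the order was the opposite, with 10th percentiles of pileup of 20.5 at the sites and 25.7 at the others.

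Read the other way, the share of p53 sites that lay in vehicle H3K9me3 differed with the p53 pileup. It was 18.3% of 2470 sites with a pileup under 32 and 8.16% of 4006 sites from 32 to 64. From there it increased to 10.8% of 2203 sites, 23.9% of 1140 sites, 53.2% of 654 sites and 74.0% of 392 sites in bands that each double the pileup, the last starting at 512. Of the 500 sites with the highest −log10 q, 359 lay in vehicle H3K9me3. Among the 63 sites with a pileup of at least 1000 the number was 35, so the share was lower at the extreme than in the band from 512 as a whole. Stronger p53 regions were also wider. Below 32 the median width was 330 bp in H3K9me3 and 298 bp outside it, and from 512 it was 919.5 and 930.5 bp. A wider region meets the 1 bp rule more easily, and the part of width in these shares was not tested.

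**Figure D1:**
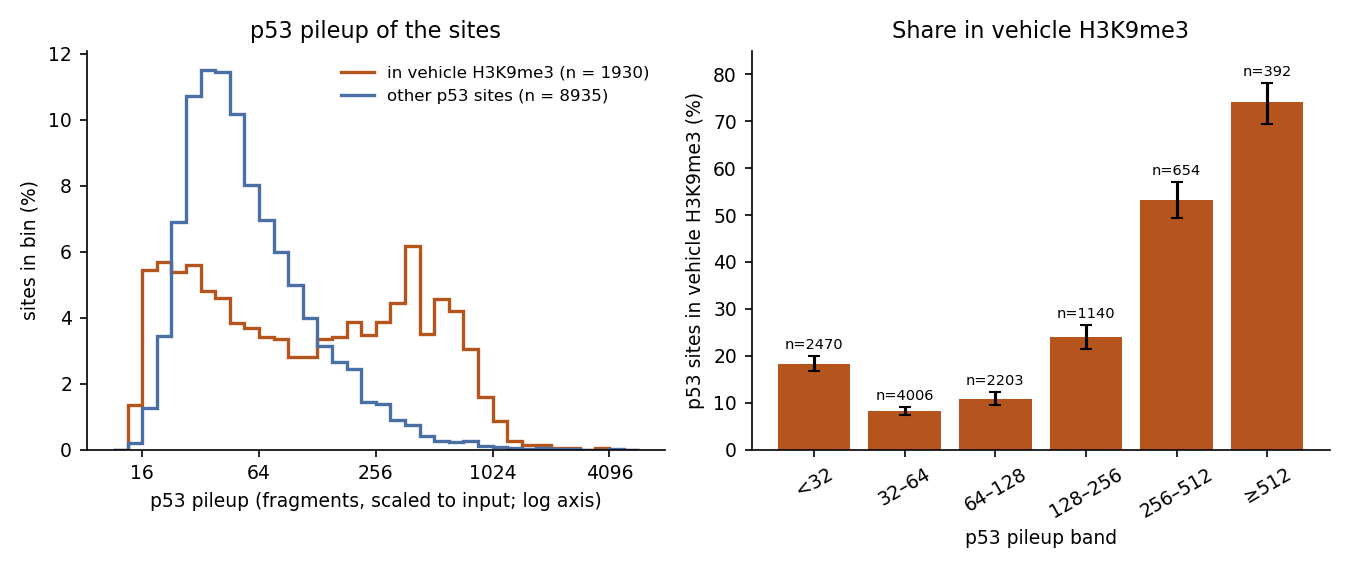
p53 pileup at sites in vehicle H3K9me3 and at the other p53 sites. Left, percent of the 1930 and the 8935 sites per bin of pileup (fragments scaled to input, log axis), with 2 humps for sites in H3K9me3 and 1 for the others. Right, percent of p53 sites in vehicle H3K9me3 in 6 bands of pileup, with 95% Wilson intervals as bars, lowest at 8.16% and highest at 74.0%.

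H3K9me3 was still listed after doxorubicin at 1867 of the 1930 sites (96.7%, 95.8 to 97.4). Among all 60836 vehicle H3K9me3 regions the share listed after doxorubicin was 84.4%, and it was 83.9% among the 58648 without a p53 region. For sites a doxorubicin region had to overlap the p53 region, and for H3K9me3 regions the vehicle region itself, here and in the comparisons below. With the vehicle region as the unit, 97.2% of the 1910 regions holding a site were listed again. The vehicle regions holding a site were also wider, with a median of 1148 bp against 627 bp for those without p53, and wider regions were listed again more often. A wider region is more easily overlapped by any p53 region, so this difference in width is not free of the rule. In the narrowest regions, under 500 bp, the share listed again was 90.4% of 335 sites and 67.3% of 22890 regions without p53. From 500 to 1000 bp it was 96.0% and 89.96%. From 1000 to 2000 bp the order was the opposite, 97.8% and 98.7%, and from 2000 to 5000 bp the shares were 99.5% and 100.0%. A p53 region can reach beyond a narrow H3K9me3 region, and the part of this in the shares was not tested.

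The scaled pileup of the mark was also higher after doxorubicin. A difference between the pooled libraries as a whole, in enrichment or background, cannot be told apart from a change in the mark. Scaled to fragments per 1000000 fragments of the list (FPM), the H3K9me3 pileup at the sites had a median of 1.25 after vehicle (quartiles 0.875 and 2.00) and 1.87 after doxorubicin (quartiles 1.32 and 2.88). In fragments these medians are 20 and 27. The ratio of doxorubicin to vehicle, site by site, had a median of 1.41, quartiles of 1.18 and 1.70, and a range of 0.370 to 11.3. Doxorubicin was higher at 1650 of the 1867 sites listed in both (88.4%), where vehicle regions without a p53 region gave 79.7%. It was at least 1.5 times higher at 775 (41.5%), where all vehicle regions gave 32.6%, and at least 1.5 times lower at 24 (1.29%), where all vehicle regions gave 2.60%.

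The scaled H3K9me3 pileup away from p53 was higher after doxorubicin too. Regions without a p53 region had a median ratio of 1.30, and regions holding a site 1.42. All these regions, with and without a site, were picked by their call after vehicle, so their ratios to vehicle are not free of that choice. The gap was smallest in the widest regions. Counted over sites by the width of their vehicle region, the median under 500 bp was 1.51, and over regions without p53 it was 1.33. From 1000 to 2000 bp these medians were 1.48 and 1.30, and above 5000 bp 1.28 and 1.26. The H3K9me3 ratio was also higher at stronger p53 sites, with medians of 1.33 below a p53 pileup of 32, 1.31 from 32 to 64, 1.44 from 64 to 128, and 1.48, 1.48 and 1.49 in the 3 bands above.

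The regions were wider as well. Median H3K9me3 width was 1219 bp after vehicle (quartiles 624 and 2662) and 1723 bp after doxorubicin (quartiles 926 and 3182), and the region was wider after doxorubicin at 1343 of 1867 sites (71.9%). Without p53 the share was 61.8%. These widths depended on how regions were drawn: joining histone regions within 1000 bp gave medians of 1907 and 2602 bp, and keeping only pileups of at least 1 FPM gave 2004 and 2392 bp. The widest vehicle regions held weak p53 sites. In the 243 sites in regions over 5000 bp the median p53 pileup was 31.5, against 181 in the 464 sites in regions of 1000 to 2000 bp. The widest, around the p53 site at chr17:27259125-27259528, measured 34596 bp after vehicle and 34693 bp after doxorubicin, and the p53 pileup there was 43.3.

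**Figure D2:**
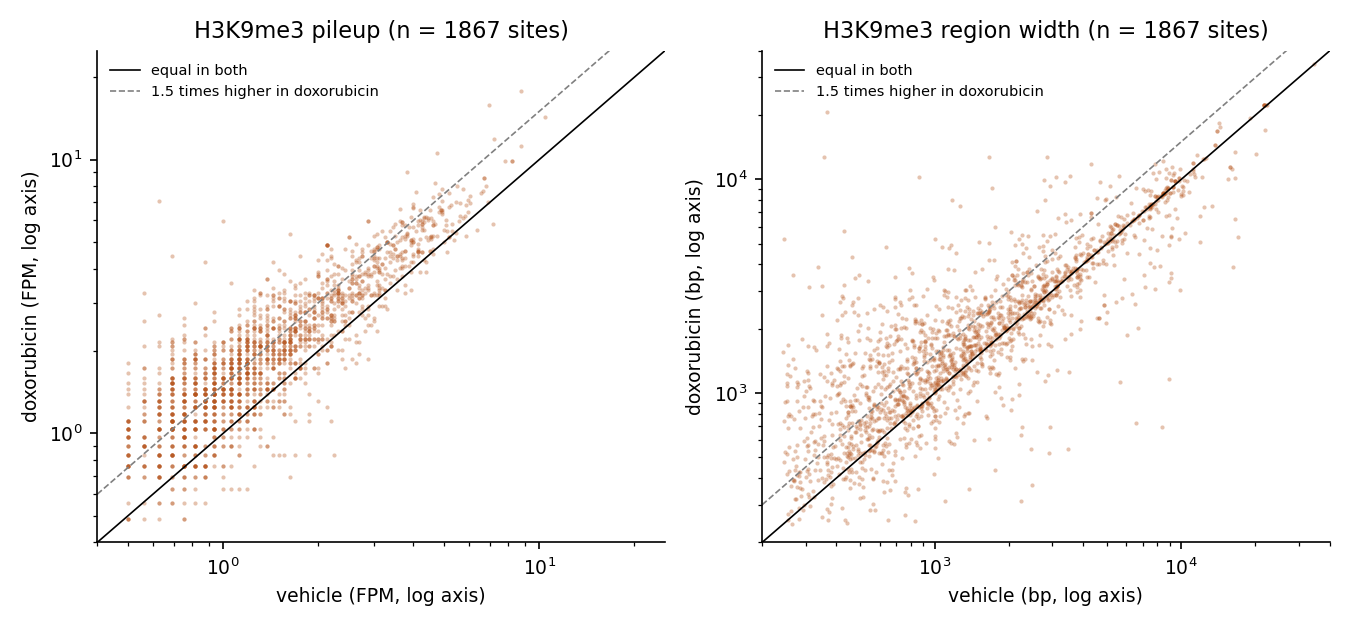
H3K9me3 at the 1867 sites listed in both treatments, each point a site, vehicle on the x axis and doxorubicin on the y axis, both log. Left, pileup in FPM, with 1650 points above the line of equality; right, region width in bp, with 1343 above it.

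Sites differed widely in this ratio. At the site in Cmc2, which encodes a mitochondrial protein, the H3K9me3 region was 365 bp wide with 10 fragments at its summit after vehicle, and 20686 bp wide with 102 fragments after doxorubicin, a ratio of 11.3 in FPM. The highest summit of that doxorubicin region need not lie at the p53 site. Tmem238l followed with 0.688 and 4.44 FPM, a site at chr17:34752035-34752677 with 1.00 and 5.97, and Tbc1d22a, which encodes a protein with a Rab GTPase-activating domain, with 0.563 and 3.26. The lowest ratio, 0.370, was at chr6:41561623-41561909, where 36 fragments were listed after vehicle and 12 after doxorubicin. At Cdkal1, a tRNA-modifying enzyme gene, the values were 1.88 and 0.833 FPM, and the p53 pileup there was 38.1.

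At the 63 sites where H3K9me3 was not listed after doxorubicin, the vehicle region had been small, with a median of 11 fragments and 492 bp. The strongest p53 site among them, in Fam172a, had a p53 pileup of 450 and 11 H3K9me3 fragments over 434 bp. It also had H3K27ac after doxorubicin only, at 0.998 FPM. A vehicle pileup of 10 fragments or fewer, close to the list's lowest of 8, was seen at 164 of the 1930 sites (8.50%) and in 18.5% of the regions without p53.

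The position of p53 within its H3K9me3 region is partly set by the overlap rule, and no value for a random position was computed. The p53 summit lay inside the vehicle H3K9me3 region at 1753 sites (90.8%), and its median distance to the nearest end of that region was 293.5 bp. The nearest vehicle H3K9me3 summit was 105 bp away at the median and within 100 bp at 937 of 1930 sites (48.5%). After doxorubicin the median was 85 bp, with 1037 of 1867 within 100 bp (55.5%). Per 100 sites and 100 bp on each side, H3K9me3 summits numbered 24.2 in the first 100 bp after vehicle and 3.33 between 2500 and 3000 bp. After doxorubicin they numbered 26.8 and 4.01.

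H3K27ac summits, which the rule did not use, were densest near the p53 summit. After doxorubicin they numbered 19.7 in the first 100 bp and 1.27 between 2500 and 3000 bp, and after vehicle 11.04 and 1.18. Where an H3K27ac region was listed after doxorubicin, its nearest summit lay within 100 bp of the p53 summit at 768 of 1406 sites (54.6%), compared with 2274 of 6385 other p53 sites (35.6%). After vehicle the shares were 427 of 843 (50.7%) and 1250 of 3642 (34.3%). The H3K27ac regions of the sites were narrower, 928 bp at the median after doxorubicin against 1452 bp at the other sites, and the part of width in the summit distances was not tested.

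**Figure D3:**
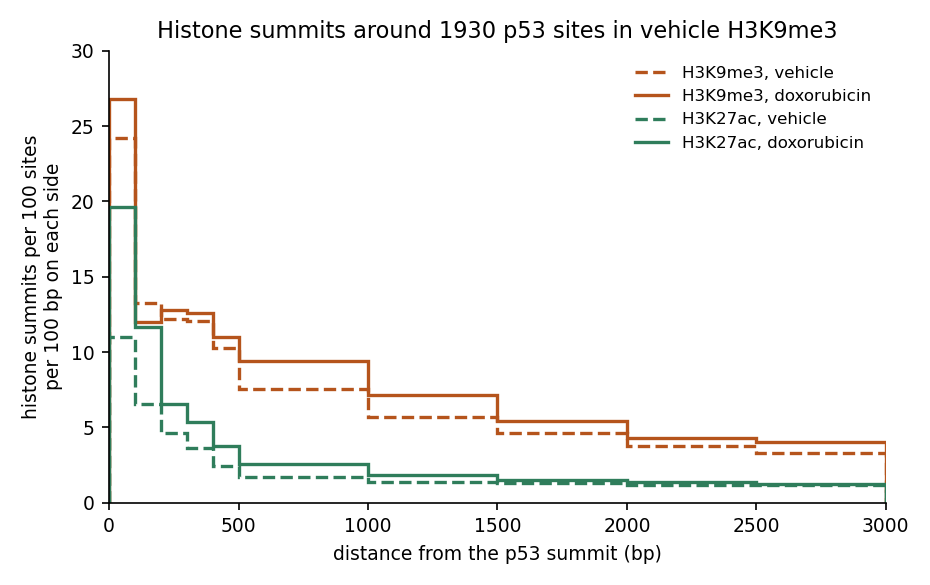
Density of histone summits by distance from the p53 summit (bp) at the 1930 sites, per 100 sites and per 100 bp on each side, for both marks and treatments. All 4 lines are highest in the first 100 bp, at 24.2 and 26.8 for H3K9me3 and 11.04 and 19.7 for H3K27ac.

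Both marks were listed at many of the sites. Each mark was matched to the p53 region separately, so the regions of the 2 marks need not share a base. Near Gm9703 on chromosome 17, for instance, the doxorubicin H3K9me3 region ended at 27534886 and the H3K27ac region began at 27534926. H3K27ac was listed after vehicle at 843 of the 1930 (43.7%, 41.5 to 45.9), where all p53 sites gave 41.3%, and after doxorubicin at 1406 (72.8%, 70.8 to 74.8), where all p53 sites gave 71.7%. H3K9me3 regions without a p53 region carried H3K27ac at 10.7% after vehicle and 10.6% after doxorubicin. With the region as the unit, those holding a site carried it at 45.1% and 73.6%. After doxorubicin both marks were listed at 1358 sites (70.4%). The lists come from populations of cells, so both marks in 1 cell and each mark in different cells cannot be told apart. The histone lists were also called without a control, so unspecific signal at the sites was not tested.

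By state, 831 sites (43.1%) had H3K27ac in both treatments, where all p53 sites gave 40.8%. At 575 (29.8%) it was listed after doxorubicin only, where all p53 sites gave 30.9%. At 12 (0.622%) it was listed after vehicle only, where all p53 sites gave 0.506%, and at 512 (26.5%) in neither, where all p53 sites gave 27.8%. In this pooled view the sites were close to p53 sites in general. In H3K9me3 regions without p53 the one-treatment states were balanced, at 2.73% after doxorubicin only and 2.88% after vehicle only. The doxorubicin H3K27ac list is longer, with 112259 regions against 82177, and with lists of equal length the doxorubicin-only share was 25.3% and the vehicle-only share 1.09%. With a pileup of at least 1 FPM required of every histone region, H3K27ac was listed at 18.6% of the sites after vehicle and 50.5% after doxorubicin.

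The pooled likeness covered differences at matched p53 strength. After vehicle, from a p53 pileup of 32 to 64, H3K27ac was listed at 21.7% of 327 sites in H3K9me3 (17.6 to 26.5) and 35.3% of 3679 others (33.8 to 36.9). From 64 to 128 the shares were 30.1% of 239 and 48.7% of 1964. From 128 to 256 they were 37.4% of 273 (31.8 to 43.2) and 60.3% of 867 (57.0 to 63.5). The order was the opposite at 512 and above, with 87.6% of 290 sites in H3K9me3 (83.3 to 90.9) and 67.6% of 102 others (58.1 to 75.9). That last difference was nearly gone under 2 stricter cut-offs, with 39.0% and 38.5% at a histone pileup of at least 1 FPM and 64.9% and 61.4% at a histone fold of at least 4. It was smaller at an H3K27ac −log10 q of at least 5, with 63.4% and 53.9%, and in all 3 settings the intervals overlapped. Below 32 the shares were 27.4% and 28.7%, and from 256 to 512 they were 63.2% and 70.3%. The intervals cover counting error only.

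After doxorubicin this gap was smaller among the stronger sites. From 128 to 256, 83.2% of the sites in H3K9me3 and 86.9% of the others had H3K27ac, and from 256 upward the shares were 97.4% and 99.7% against 94.1% and 96.1%. Below 32 the sites in H3K9me3 had H3K27ac at 40.0% and the others at 58.5%. H3K27ac after doxorubicin only was thus listed at 46.2% of the sites in H3K9me3 from 128 to 256, and at 26.8% of the others. At 512 and above it was 12.1% and 28.4%.

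**Figure D4:**
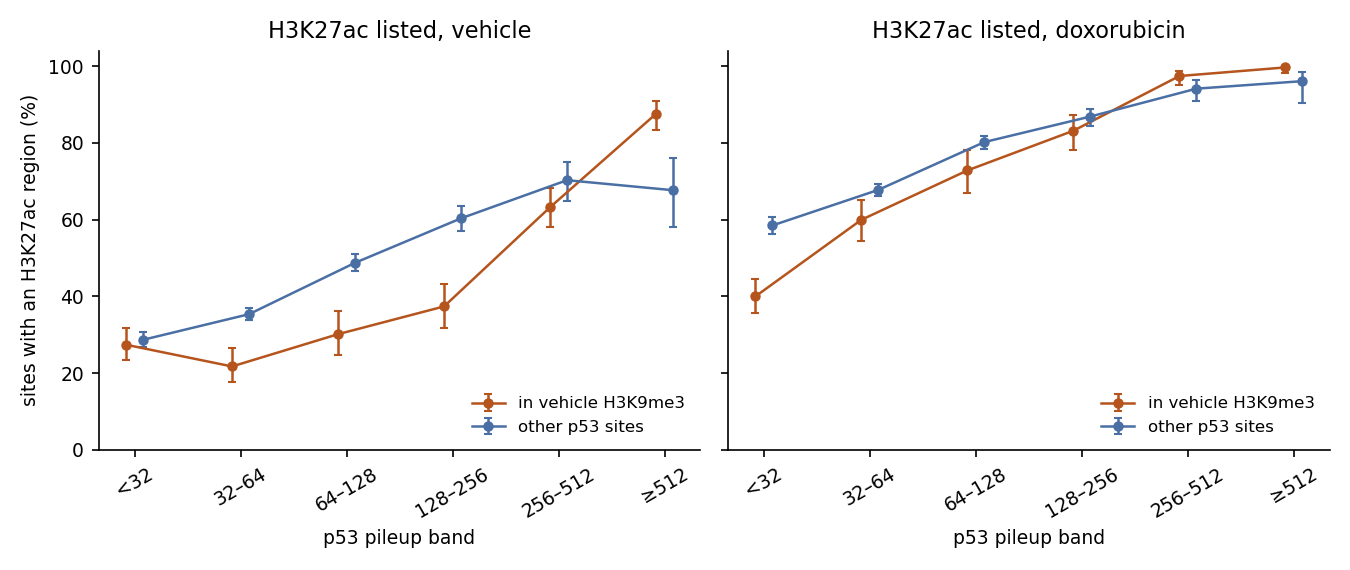
Percent of p53 sites with an H3K27ac region in 6 bands of p53 pileup (fragments scaled to input), after vehicle (left) and doxorubicin (right), with 95% Wilson intervals, for sites in vehicle H3K9me3 and the other p53 sites. After vehicle the sites in H3K9me3 are lower from 32 to 256 and, at the cut-offs as listed, higher at 512 and above; after doxorubicin both sets are above 94% from 256.

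Where H3K27ac was listed in both treatments, its scaled pileup was higher after doxorubicin, with the same limit as for H3K9me3. The ratio of FPM values had a median of 1.89 at 831 sites in H3K9me3 (quartiles 1.36 and 2.54) and 2.08 at 3599 other p53 sites, while all 58482 vehicle H3K27ac regions listed in both had a median of 1.17 and were at least 1.5 times higher in 30.6%. It was at least 1.5 times higher at 581 of 831 sites (69.9%), where all p53 sites gave 77.6%, and at least 1.5 times lower at 37 (4.45%), where all p53 sites gave 1.17%. The ratio was higher at stronger p53 sites, with medians of 1.05 below a p53 pileup of 32, 1.62 from 32 to 64 and 2.42 from 512. For the other p53 sites the medians in those bands were 1.94, 2.05 and 2.52. The sites were also lower from 64 to 128, at 1.77 against 2.16, and from 128 to 256, at 1.82 against 2.12, and from 256 to 512 the medians were 1.92 and 1.98. H3K27ac width at the 831 sites was 792 bp after vehicle and 1192 bp after doxorubicin at the median, and 1232 and 2241 bp at the other sites.

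The states differed in p53 more than in H3K9me3. Median p53 pileup was 329 with H3K27ac in both treatments, 122 with doxorubicin only, 40.0 with vehicle only (12 sites) and 30.8 with neither. Median vehicle H3K9me3 was 1.19, 1.13, 1.09 and 1.56 FPM in the same order, and its doxorubicin to vehicle ratio 1.45, 1.46, 1.40 and 1.30. In each state the median H3K9me3 ratio was above 1. Across the 805 sites listed in all 4 histone lists, the H3K9me3 and H3K27ac ratios had a Spearman rho of 0.08. Across 1406 sites p53 pileup and doxorubicin H3K27ac pileup had a rho of 0.40, across 843 sites p53 and vehicle H3K27ac pileup a rho of -0.12, and across 1930 sites p53 and vehicle H3K9me3 pileup a rho of -0.16. These are correlations across sites of the same pooled libraries, which are not independent replicates.

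The 25 sites with the highest p53 −log10 q were described one by one. All 25 had a listed H3K9me3 region after doxorubicin, at a higher pileup in FPM in 25 of 25. Among all the sites 96.7% were listed, and 88.4% of those were higher. H3K27ac was listed at 22 after vehicle and at 25 after doxorubicin, and its pileup was higher after doxorubicin at 20 of those 22. At the 290 sites with a p53 pileup of 512 or more, it was listed at 87.6% after vehicle and 99.7% after doxorubicin. Of all 831 sites with H3K27ac in both treatments, 87.7% were higher after doxorubicin. A gene lay within 5000 bp at 17 of the 25, and 1 of the 25 was within 1000 bp of a RefSeq transcription start.

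The strongest lay 4378 bp from Mrps31, a mitochondrial ribosomal protein gene, at chr8:22433092-22435364, with a p53 pileup of 3826 and a fold enrichment of 273. H3K9me3 there had 11 fragments over 537 bp after vehicle and 32 fragments over 2009 bp after doxorubicin, or 0.688 and 2.22 FPM. H3K27ac went from 4.50 to 9.86 FPM. The second, 2909 bp from Zscan20, which encodes a zinc finger protein with a SCAN domain, had a p53 pileup of 2584. Its vehicle H3K9me3 region was at the list's minimum of 8 fragments, over 351 bp, and its doxorubicin region had 24 fragments over 2317 bp. H3K27ac there was 1.02 FPM after vehicle and 5.52 after doxorubicin. At both sites the 2 marks had a higher scaled pileup after doxorubicin.

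Rgcc, a regulator of the cell cycle, lay 3624 bp from a site with a p53 pileup of 1735 and 13 and 18 H3K9me3 fragments in the 2 treatments. H3K27ac was not listed there after vehicle and had 29 fragments after doxorubicin. Gm41537, a non-coding gene model, held the strong site with the highest H3K9me3, 3.81 FPM after vehicle and 5.35 after doxorubicin, with H3K27ac at 1.36 and 2.58. The site 3227 bp from Eed, which encodes a core subunit of the Polycomb repressive complex PRC2, had H3K9me3 at 1.06 and 1.74 and H3K27ac at 3.44 and 4.81 FPM. Inside Ppp3cc, a calcineurin subunit gene, H3K9me3 was 0.563 and 1.39 FPM and H3K27ac 1.16 and 2.99. Gm10069 and Gm35343 went the other way for H3K27ac, from 6.39 to 5.17 and from 4.50 to 3.64 FPM, while their H3K9me3 was 1.75 and 2.22, and 1.81 and 2.57. Distance to a gene is all that links these names to the sites.

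**Figure D5:**
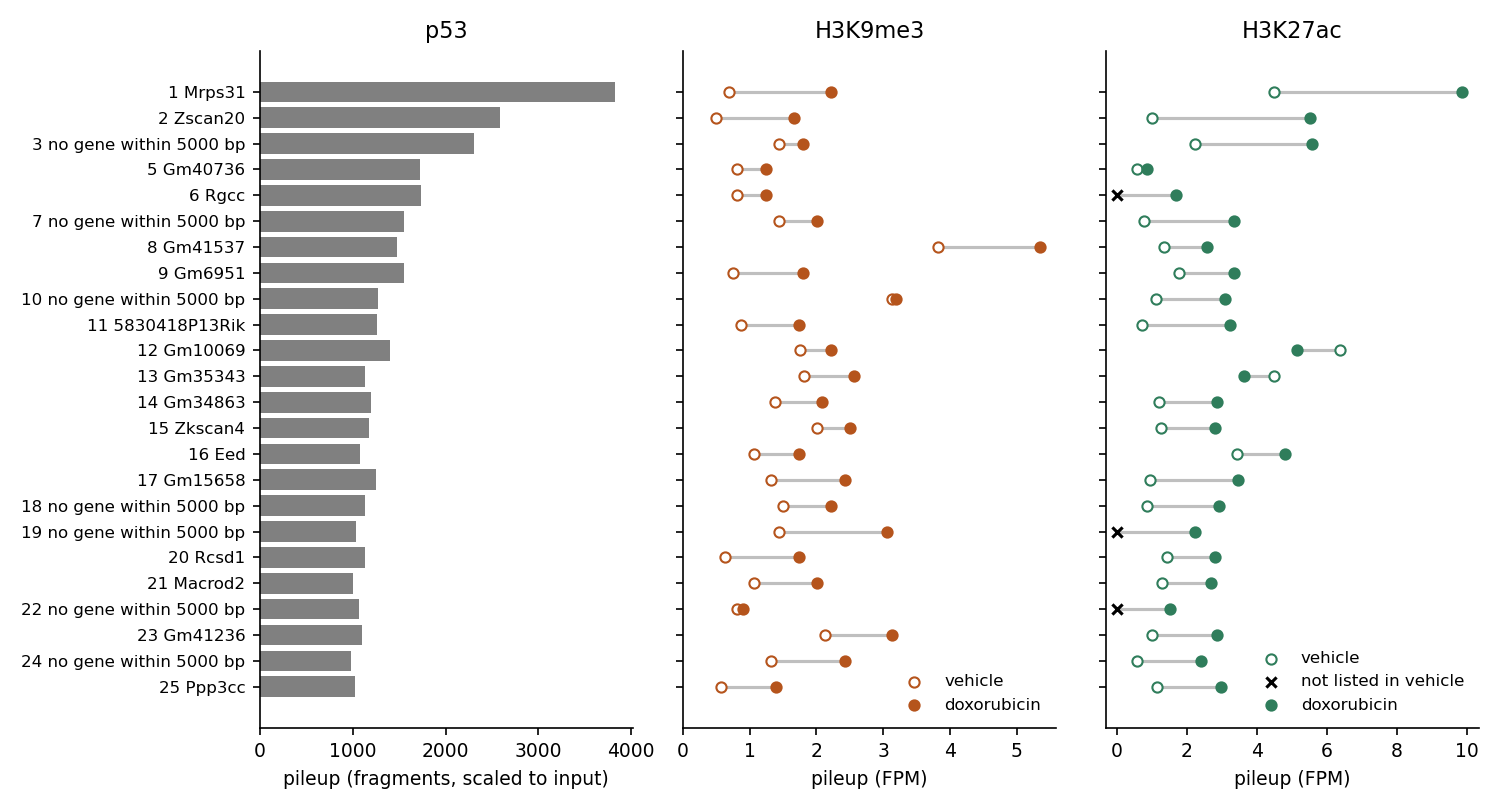
p53 pileup (bars), H3K9me3 and H3K27ac (points, FPM) at 24 of the 25 strongest sites, ordered by the rank of their p53 −log10 q and named by a gene within 5000 bp; 1 site is not shown. Open points are vehicle, filled points doxorubicin, and crosses at the left edge mark sites with no H3K27ac region listed after vehicle; every filled H3K9me3 point lies to the right of its open point.

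The strongest sites with H3K27ac after doxorubicin only had moderate levels of it. Besides Rgcc they included a site in Sgms2, a sphingomyelin synthase gene, with a p53 pileup of 783, H3K9me3 at 1.31 and 2.08 and doxorubicin H3K27ac at 1.70 FPM. A site near Megf11 had a p53 pileup of 773, H3K9me3 at 1.25 and 1.53 and H3K27ac at 1.58. At the non-coding gene model 4930471L23Rik the values were 834, 1.25 and 1.39, and 2.17. The strongest site with the mark after vehicle only, at chr19:15847925-15848481, had a p53 pileup of 156 and a vehicle H3K27ac pileup of 10 fragments, 1 above that list's lowest of 9. Its H3K9me3 was 0.875 and 4.24 FPM.

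The sites lay inside genes or near gene starts less often than the other p53 sites did. The p53 summit was inside an annotated gene at 672 of 1922 sites (35.0%, 32.9 to 37.1), against 58.7% of the other p53 sites, and within 1000 bp of a gene end at 116 (6.04%) against 8.38%. Of 1857 sites with a RefSeq start on their chromosome, 29 (1.56%) were within 1000 bp of one, against 3.64%, and the median distance was 34352 bp against 26671 bp. The share of p53 sites that lay in vehicle H3K9me3 was lowest on chromosome 11, at 13.2%, and highest on the X, at 24.2% (48 of 198), leaving aside the Y with 2 p53 sites and the contigs.

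Of 45052 genes in the annotation, 122 (0.271%) had one of the sites within 1000 bp of an end and 803 had another p53 site there. Vehicle H3K9me3 was listed there at 3641 genes and vehicle H3K27ac at 16573. The counts of sites per gene list are too small to read a difference from. Of 52 established p53 target genes, 1 had such a site and 19 had another p53 site, while 3 had vehicle H3K9me3 and 47 vehicle H3K27ac. The 1 was Cdkn1a. Its p53 site at chr17:29090508-29092240 had a fold enrichment of 64.2 and overlapped an H3K9me3 region of 392 bp with 13 fragments after vehicle, and one of 1150 bp with 18 fragments after doxorubicin. Both lie within a wide H3K27ac region, 7873 bp at 6.05 FPM after vehicle and 8561 bp at 6.75 after doxorubicin. Levels of the 2 antibodies are not on 1 scale. At the other promoters printed above, H3K9me3 was 0.875 FPM after vehicle and 0.833 after doxorubicin at D730003K21Rik, with H3K27ac at 1.31 and 1.94. At Gm34607 H3K9me3 was 1.56 and 2.01 and H3K27ac 1.11 and 2.52. Tmem238l had no H3K27ac region in either treatment.

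Zfp genes encode zinc finger proteins, some of which bring the H3K9me3 machinery to DNA. Of 419 such genes, 80 had vehicle H3K9me3 within 1000 bp of an end and 2 (0.477%) had one of the sites. Among all 45052 genes these numbers were 3641 and 122. At Zfp958 the p53 pileup was 595, with H3K9me3 at 1.25 and 1.32 and H3K27ac at 3.54 and 3.82 FPM. At Zfp820 it was 32.3, with H3K9me3 at 1.13 and 2.29. The lists of genes of the 2-cell state, H3K9me3 silencing factors, germ-line genes, imprinted genes, olfactory and vomeronasal receptors, Pramel genes and keratin-associated proteins had none within 1000 bp, nor had the pluripotency list. Within gene bodies, 12 Zfp genes, 3 vomeronasal receptor genes, 1 imprinted gene and 1 gene of H3K9me3 silencing held a site, among 651 such genes (1.45%) in the whole annotation.

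Listed background regions were rare at or near the sites, though more frequent than at the other p53 sites. An input region overlapped 4 of the 1930 sites (0.207%) and 4 of the 8935 others (0.0448%). An untagged HA region, which the rule keeps out of the sites themselves, lay within 10000 bp of 99 sites (5.13%) and of 2.36% of the others. Leaving out the sites near an untagged region gave a median p53 pileup of 106 and H3K27ac shares of 43.0% and 72.4%. Another p53 site lay within 10000 bp of 460 sites (23.8%) and of 14.7% of the others.

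At the edge of the rule, the sites just inside overlapped vehicle H3K9me3 by 4 bp in Cdc14a, 5 bp in S100a7l2, 5 bp in Stpg1, 9 bp at chr16:33315549-33315858 and 11 bp near Gm9703, with p53 pileups from 22.0 to 60.1. Those just outside, 5 bp from a region near Sipa1l2, 8 bp near Gm4968 and 9 bp in Dnah8, had p53 pileups of 37.4, 22.7 and 74.1. An overlap under 100 bp was found at 48 sites (2.49%), and vehicle H3K9me3 covered the whole p53 region at 965 (50.0%).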

How the data were processed

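ChIP-seq peak lists of 14 libraries in 7 groups were used. The submitters' processing notes name mm10 and Bowtie2 2.2.6. Per the file headers, the authors called peaks on the 2 pooled libraries of each group with MACS 2.2.5, at a q cutoff of 0.05 and with 1 fragment kept per position. Per the same headers, the histone and input lists had no control, the untagged and p53 lists used the input, and a local background entered the p53 list alone. The signal deposited is the pileup at a summit, with the fold (ratio to background), the −log10 q and the length in bp. Deposited coordinates count from 1.

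Summits of 1 interval were joined into 1 region with the values of its highest summit. Overlap meant at least 1 bp, and the overlapping region of highest pileup gave a site's value. Histone pileups were divided by the list's fragments after filtering and multiplied by 1000000. Genes and promoter windows came from RefSeq tables of GRCm38.p6 (45052 genes, 32851 windows), and a gene was named within 5000 bp. Shares carry 95% Wilson intervals. The work used scipy 1.17.1, pandas 2.3.3 and numpy 2.4.6 under Python 3.11.15, and matplotlib 3.10.9. Overlaps were checked against bedtools on simulated regions, with 0 differing.

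The sites, gene lists, pileup bands and naming rules (the 25 strongest sites, genes of the lists, extremes of the H3K9me3 ratio, of H3K27ac state and of the overlap, and sites without doxorubicin H3K9me3) were chosen with earlier results of these data known. As every list pools its libraries, no test was run. Repeat annotation and a genome sequence were not used here.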

Additional observations from a re-analysis of the deposited data

How the results depend on the processing

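No paired analysis was possible because the authors merged the libraries of a group before calling, and no replicate was left out for the same reason. Depth limits what a missing region means: the lowest listed pileups were 7 to 9 fragments in the 4 histone lists.

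In each of 12 alternatives and the main setting (13 of 13), the sites had a higher median p53 pileup than the other p53 sites, more H3K27ac after doxorubicin than after vehicle, and less vehicle H3K27ac than the others at p53 pileups from 128 to 256. From a p53 pileup of 512 they had more in the same 13, but at 1 FPM (39.0% and 38.5%), at a fold of 4 (64.9% and 61.4%) and at an H3K27ac −log10 q of 5 (63.4% and 53.9%) the intervals overlapped. The number of sites ran from 1294 to 1935. Only the median H3K9me3 ratio was checked for a reversed direction, and its lowest value was 1.36. Requiring the p53 summit inside H3K9me3 gave 97.6% listed after doxorubicin and a vehicle width of 1327 bp, and requiring 50% of the p53 region gave 97.8%, doxorubicin H3K27ac at 70.6%, and widths of 1374 and 1853 bp. An H3K9me3 −log10 q of at least 5 gave widths of 1583 and 2062 bp and a ratio of 1.38. An H3K27ac −log10 q of at least 5 gave shares of 30.2% and 61.3%. A histone fold of at least 4 gave H3K27ac shares of 32.2% and 63.0%, widths of 1462 and 1954 bp and a ratio of 1.38. A p53 −log10 q of at least 5 gave doxorubicin H3K27ac at 78.1%, doxorubicin only at 33.3%, p53 medians of 158 and 51.3, and widths of 1112 and 1634 bp. At least 1 FPM gave H3K27ac at 18.6% and 50.5%, doxorubicin only at 32.5%, widths of 2004 and 2392 bp and a ratio of 1.36. Equal list lengths gave 94.3% with H3K9me3 after doxorubicin, H3K27ac after doxorubicin at 67.9%, doxorubicin only at 25.3% and vehicle only at 1.09%. Joining regions within 1000 bp gave widths of 1907 and 2602 bp. The H3K9me3 summit nearest to p53 gave a ratio of 1.37. Gene windows of 500, 2500 and 5000 bp held 61, 277 and 497 sites. The alternative without sites near an untagged region was added after the data were seen. The cause of each difference was not tested.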

Other observations

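A further 637 p53 sites had an H3K9me3 region after doxorubicin only and so fall outside the set described above. Their H3K9me3 was low and narrow, with a median of 0.833 fragments per 1000000 (12 fragments) and 531 bp, and their median p53 pileup was 80.7, between the 107 of the sites in vehicle H3K9me3 and the 48.4 of all sites outside it, which include these 637. H3K27ac was listed in both treatments at 239 of them (37.5%, 95% Wilson interval 33.8 to 41.3), after doxorubicin only at 242 (38.0%, 34.3 to 41.8), after vehicle only at 6 (0.942%) and in neither at 150 (23.5%). These sites were picked by a doxorubicin call, so their H3K9me3 ratio to vehicle is not given.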
